A study of Mus musculus with 8 samples.

Results

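The Gimap genes encode GTPases of immunity-associated proteins, a family of guanine nucleotide-binding proteins, and 8 of them (Gimap1, Gimap3, Gimap4, Gimap5, Gimap6, Gimap7, Gimap8 and Gimap9) were examined in single KL (c-Kit+Lin-) cells of mouse bone marrow. They are all the genes of the family among the 27998 genes of the count table, since no other symbol in it starts with Gimap. The 8 genes were selected on values of these same pools, namely their levels in the housing groups, pool sets and progenitor states in earlier results, so their differences between groups, pool sets and cell classes are given as a description, and nothing is tested on them as support. KL cells came from female B6 mice aged 3 to 4 months, which either stayed in a specific-pathogen-free facility (SPF) or were moved from it to a conventional facility and lived there for 1 month in cages shared with conventionally bred mice (CVT). Each group had 10 mice by the sample titles, sorted cells of 2 or 3 mice were pooled, and 4 pools per group were sequenced as Chromium 3′ v2 libraries, so the pool is the replicate and differences between single mice are not seen. The paper's figure legend gives 8 mice per group instead. The sort kept CD117+ cells and removed cells with lineage markers, among them CD3, CD4 and CD8 of T cells and CD45R of B cells.

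Gimap proteins bind GTP through a domain shared by the family, and several of them are anchored in intracellular membranes. They are best known from lymphocytes, where loss of single members shortens the life of T and B cells, and Gimap5 has also been linked to the maintenance of hematopoietic stem cells. In the mouse the genes lie side by side in a single cluster.

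The table held UMI counts of 29891 cells. Pools 1, 2, 7 and 8 were SPF and pools 3, 4, 5 and 6 were CVT, where the number that ends each cell name was read as the number in the sample descriptions, and the assignment of cells to pools rests on that reading. Total UMIs were 19041749, 43194400, 57567699, 59812346, 41901551, 44600182, 19814800 and 49911524 in pools 1 to 8. Mice with numbers up to 10 were in pools 1 to 4, and those from 11 to 20 were in pools 5 to 8. These pool sets differed widely in expression and entered the fits as a block, and what they stand for is not given in the labels. Of 29365 distinct cell barcodes, 522 occurred in more than 1 pool, with 6 to 31 shared by any 2 pools of a group. Pools of the same group differed beyond sampling noise in each of the 12 pairs (chi-square per degree of freedom from 8.14 to 96.7). Pools of different groups were not compared in this way. For CVT pools this value was lower within the pool sets (14.05 and 8.14) than across them (59.29 to 96.7). SPF pools did not split by pool set in this way. SPF pool 8 was closer to SPF pools 1 and 2 (11.12 and 19.02) than to SPF pool 7 of its own set (39.58).

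Taken over all KL cells, the family was carried by 4 genes. Of 41950 Gimap UMIs, 37.8% came from Gimap1, 28.4% from Gimap6, 22.0% from Gimap9 and 8.09% from Gimap5, whereas Gimap7 gave 1.95%, Gimap8 0.782%, Gimap4 0.641% and Gimap3 0.303%. A UMI count from the 3′ end does not grow with transcript length, so these shares were not divided by length. With the UMIs of a pool added up and each gene's count scaled to a common total (CPM), the mean ± SD over the 8 pools was 49.5 ± 13.2 for Gimap1, 37.2 ± 9.60 for Gimap6 and 28.4 ± 4.44 for Gimap9. Gimap5 followed with 10.9 ± 3.47 CPM, and Gimap7 with 2.67 ± 1.02 CPM. Gimap8, Gimap4 and Gimap3 were near or below 1 CPM (1.06 ± 0.477, 0.994 ± 0.767 and 0.489 ± 0.433), and their spreads overlapped. Gimap3 rested on only 127 UMIs in all, with 2 to 28 per pool, so its values carry the largest counting error. At least 1 Gimap UMI was present in 57.3% of KL cells, and the highest count in a single cell was 24.

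The level of the family followed the class of the cells. Cells were clustered without the Gimap genes and each cluster was named from markers, which gave 12 named classes and 1 cluster without a name. No cluster took the name MPP-like in this clustering. With the counts of all 8 genes added up, T and NK-like cells had the highest level, 1356 ± 593 CPM in the 3 pools that had at least 20 such cells, followed by LTHSC-like cells with 529 ± 58.9 CPM (mean ± SD, 8 pools). B-like cells (317 ± 41.9 CPM, 4 pools), the unnamed cluster 8 (309 ± 65.1 CPM) and LMPP-like cells (298 ± 34.5 CPM) came next and did not differ beyond their spread. CMP-like cells had 206 ± 24.0 CPM in 7 pools, and basophil and mast-like (163 ± 17.5 CPM) and MK-like cells (155 ± 12.8 CPM) had lower means and lay within each other's spread, with the highest basophil and mast-like pool (199 CPM) above the lowest CMP-like pool (182 CPM). MEP-like cells had 68.7 ± 12.4 CPM, GMP-like cells 67.5 ± 23.3 CPM, late granulocyte-like cells 42.7 ± 13.2 CPM and monocyte-like cells 22.8 ± 1.84 CPM. MEP- and GMP-like cells could not be placed in order, and the pools of GMP-like cells (31.9 to 95.9 CPM) overlapped with those of late granulocyte-like cells. The 79 dendritic-like cells had 148 CPM together, with no pool reaching 20 cells. The lowest LTHSC-like pool (407 CPM) was above the highest LMPP-like pool (345 CPM), so these classes, both counted among early progenitors, were apart.

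**Figure D1:**
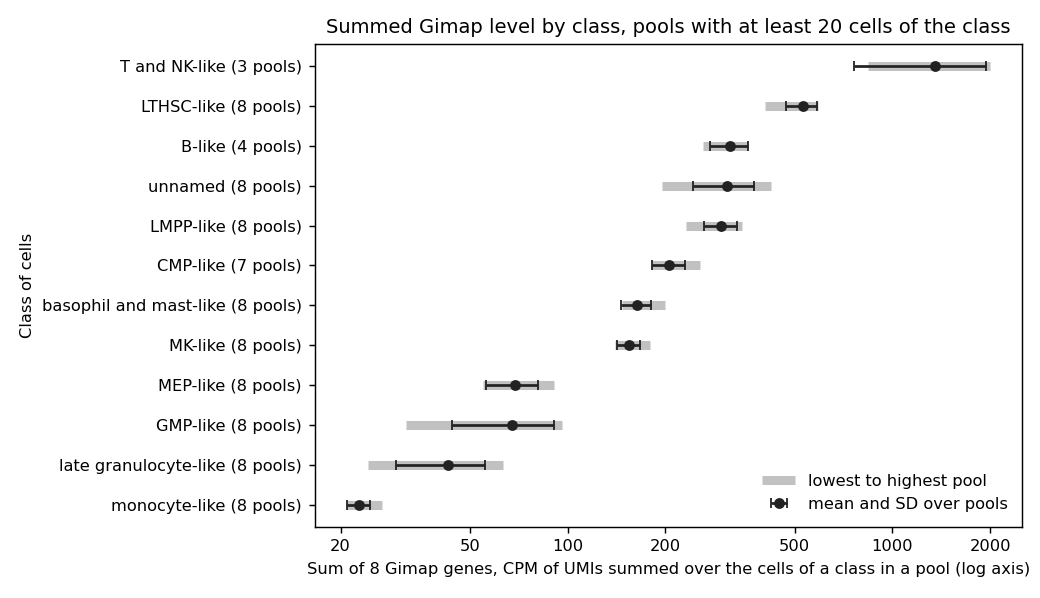
Summed level of the 8 Gimap genes in each class of KL cells, as CPM on a log axis. Points with bars are the mean and SD over pools that had at least 20 cells of the class, and grey bars run from the lowest to the highest pool. LTHSC-like cells averaged 529 CPM, LMPP-like cells 298 CPM, MEP-like cells 68.7 CPM and monocyte-like cells 22.8 CPM.

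Shares of cells were also compared with depth held equal. When each cell was thinned to 2759 UMIs, the smallest total of any cell, 74.7% of LTHSC-like cells, 53.7% of LMPP-like cells, 21.9% of MEP-like cells and 17.7% of GMP-like cells were expected to hold a Gimap UMI. Monocyte-like cells, the class with the lowest level, would hold one in 5.88% of cells. How much of any share came from free RNA in the droplets was not measured. Without thinning the shares were 93.9% at a median of 6011 UMIs in LTHSC-like cells and 23.7% at a median of 15039 UMIs in monocyte-like cells, so the deeper cells had the lower share.

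Clusters of the same class differed in Gimap level. LTHSC-like cells consisted of cluster 9, with 684 CPM of summed Gimap counts, and cluster 2, with 465 CPM. Procr, a surface receptor that marks long-term stem cells, was also higher in cluster 9 (79.4 CPM) than in cluster 2 (20.8 CPM). Among MEP-like cells the sum was 149 CPM in cluster 0, where Apoe and Gata2 were among the leading genes, 89.7 CPM in cluster 1 and 32.1 CPM in cluster 14, which expressed Car1, Ermap, Rhd and other erythroid genes. GMP-like cells ran from 188 CPM in cluster 3, led by Ccl9, Cpa3 and Cd34, to 10.8 CPM in cluster 10, led by Elane, Mpo and Ctsg. Among LMPP-like cells, the Il7r-expressing cluster 25 had 487 CPM and cluster 5 had 399 CPM, while cluster 24, in which Irf8 was the leading gene, had 118 CPM. These levels are over all pools together, and the leading genes are those that define the clusters, so neither is a test.

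Members differed in where they were found, although each had its highest mean in T and NK-like cells. There, over 3 pools, Gimap1 had 285 ± 36.5 CPM, Gimap6 340 ± 64.5 CPM and Gimap9 151 ± 29.1 CPM. Gimap5 had 158 ± 68.5 CPM and Gimap8 34.7 ± 30.7 CPM in these cells. The levels that follow are for other classes. Gimap1, which is needed for the survival of mature lymphocytes, had 236 ± 22.3 CPM in LTHSC-like cells (mean ± SD, 8 pools), above its 108 ± 15.5 CPM in LMPP-like cells. Gimap5 showed the same preference, with 55.6 ± 11.9 CPM against 19.9 ± 3.64 CPM, and so did Gimap8, a member with several GTPase domains in tandem, with 7.53 ± 2.25 CPM against 1.97 ± 1.07 CPM. LTHSC-like cells made up 9.82% of cells and 5.63% of UMIs, and they held 28.6% of Gimap1, 31.7% of Gimap5 and 45.7% of Gimap8 UMIs. Gimap6, reported to act in autophagy with a partner of the Atg8 family, was spread more evenly over the early classes, at 168 ± 22.5 CPM in LTHSC-like and 106 ± 15.2 CPM in LMPP-like cells.

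Gimap7 departed from this order. Its level was 14.4 ± 3.40 CPM in LMPP-like cells and 6.76 ± 3.36 CPM in LTHSC-like cells, and 55.1% of its UMIs came from LMPP-like cells. As every other member did, Gimap7 had its highest mean in T and NK-like cells, at 88.6 ± 29.2 CPM in 3 pools. It was 37.4 CPM in cluster 25, the LMPP-like cluster with Il7r, the receptor chain for interleukin 7. Gimap9 differed less between classes, at 53.4 ± 6.52 CPM in LTHSC-like, 45.6 ± 4.06 CPM in LMPP-like and 29.0 ± 4.30 CPM in MEP-like cells. Its LTHSC-like pools (from 46.7 CPM) overlapped with its LMPP-like pools (up to 52.8 CPM). Gimap9 did not keep the order of the summed level, with 55.3 ± 14.2 CPM in the unnamed cluster 8 and 51.3 ± 4.29 CPM in basophil and mast-like cells. In cluster 14 of the MEP-like cells Gimap9 had 21.7 CPM and Gimap1 only 2.42 CPM, whereas in the LTHSC-like cluster 9 it was Gimap1 that was higher, with 306 CPM against 53.4 CPM. MEP-like cells held 33.5% of all Gimap9 UMIs and 12.6% of Gimap1 UMIs.

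Gimap3 and Gimap4, the latter known from T cells, had over 50% of their UMIs in a few T and NK-like cells. The T and NK-like class comprised 140 cells in 2 clusters, and held 55.9% of Gimap3 and 51.7% of Gimap4 UMIs but only 1.56% of Gimap1 and 2.38% of Gimap6 UMIs. LTHSC-like cells held 15.7% of Gimap3 and 9.29% of Gimap4 UMIs, and LMPP-like and B-like cells each held 10.8% of Gimap4 UMIs. In cluster 33, with 47 cells and led by Ccl5, Cd3d, Cd3g and Klrd1, Gimap4 reached 493 CPM, the highest level of any member in any cluster, and Gimap3 250 CPM. Cluster 31, with 93 cells led by Tcf7, Rora, Zbtb16 and Gata3, factors of innate lymphoid cells and their precursors, had 1.46 CPM of each of these genes, although its level of Gimap5 (130 CPM) was close to that in cluster 33 (154 CPM). B-like cells had 19.4 CPM of Gimap4 and 2.68 CPM of Gimap3. Outside lymphoid and dendritic clusters, the mean of Gimap4 over pools was 0.298 CPM in CVT and 0.333 CPM in SPF mice.

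**Figure D2:**
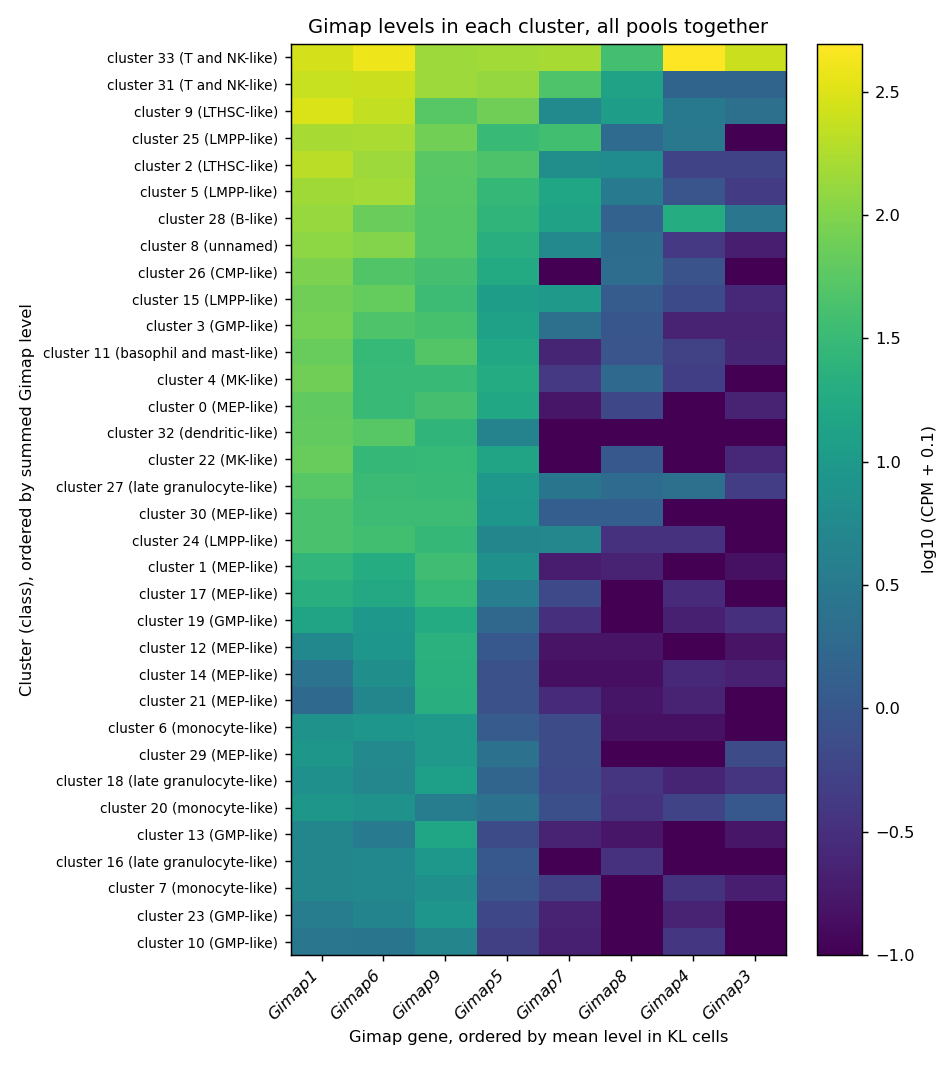
Level of each Gimap gene in each of 34 clusters, as log10 of CPM plus 0.1, for the cells of all pools together. Genes run from the highest to the lowest mean level in KL cells and clusters from the highest to the lowest summed level. Gimap3 and Gimap4 stand out in cluster 33 (250 and 493 CPM), Gimap7 is at 37.4 CPM in cluster 25, and Gimap9 keeps 21.7 CPM in cluster 14 where Gimap1 has 2.42 CPM.

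Over the 78 sums of a pool and a named class, the log2 CPM of each member was compared with that of the other members added up. Pearson's r was 0.954 for Gimap5, 0.941 for Gimap1, 0.940 for Gimap6 and 0.890 for Gimap9, and lower for the scarce members, with 0.782 for Gimap8, 0.682 for Gimap7, 0.516 for Gimap3 and 0.514 for Gimap4. After the mean of each class was taken off, r was from 0.287 for Gimap3 to 0.550 for Gimap1. These sums share pools and classes and are not independent, and low counts pull r down.

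The order of the genes along chromosome 6 in the annotation was Zfp775, AI854703, Gimap8, Gimap9, Gimap4, Gimap6, Gimap7, Gimap1, Gimap5, Gimap3, Tmem176b, Tmem176a and Aoc1, with Gimap6, Gimap3 and Tmem176b on the minus strand. The read-through gene Gm28053 shares 6.44% of the exon bases of Gimap1, 3.69% of those of Gimap5 and 3.48% of those of Gimap7, but none of their last 500 bases, where most 3′ reads fall. Gimap1os, on the opposite strand, covers 36.0% of the exon bases of Gimap1. How far it would enter the counts of Gimap1 if strand was not used was not measured. Members are also related in sequence, and whether reads were shared between them was not examined.

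Promoters are printed for the 4 abundant members, and for Gimap4 and Gimap7, whose UMIs came mostly from other classes (T and NK-like and LMPP-like cells). They are RefSeq sequences of GRCm38.p6, each with 250 bases before and 50 bases after the annotated start, written 5′ to 3′ on the strand of the gene, and all 8 members had an entry. Capitals mark GGAAGT or its reverse complement ACTTCC, which contain the GGAA core of ETS-family sites, and TGTGGT or ACCACA, which contain the core of RUNX-family sites. The regions are chr6:48738797-48739096 on the plus strand for Gimap1, chr6:48708195-48708494 on the minus strand for Gimap6, chr6:48675885-48676184 on the plus strand for Gimap9, chr6:48745947-48746246 on the plus strand for Gimap5, chr6:48718371-48718670 on the plus strand for Gimap7 and chr6:48684328-48684627 on the plus strand for Gimap4.
Gimap1: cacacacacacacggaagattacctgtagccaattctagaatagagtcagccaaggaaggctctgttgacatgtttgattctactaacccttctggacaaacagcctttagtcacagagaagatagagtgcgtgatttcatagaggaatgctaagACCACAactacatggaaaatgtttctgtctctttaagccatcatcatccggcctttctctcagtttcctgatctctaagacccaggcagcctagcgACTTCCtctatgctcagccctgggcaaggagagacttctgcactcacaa
Gimap6: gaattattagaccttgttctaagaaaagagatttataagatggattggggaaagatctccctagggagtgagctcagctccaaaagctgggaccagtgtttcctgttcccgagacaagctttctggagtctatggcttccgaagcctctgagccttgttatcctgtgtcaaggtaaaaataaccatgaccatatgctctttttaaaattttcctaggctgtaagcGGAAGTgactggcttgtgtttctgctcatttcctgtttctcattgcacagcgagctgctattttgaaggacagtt
Gimap9: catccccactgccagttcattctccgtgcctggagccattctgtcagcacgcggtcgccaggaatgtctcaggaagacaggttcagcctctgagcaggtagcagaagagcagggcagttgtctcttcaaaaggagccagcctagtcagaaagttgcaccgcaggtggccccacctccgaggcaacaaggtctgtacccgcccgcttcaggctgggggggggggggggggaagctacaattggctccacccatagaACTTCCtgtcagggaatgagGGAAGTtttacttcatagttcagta
Gimap5: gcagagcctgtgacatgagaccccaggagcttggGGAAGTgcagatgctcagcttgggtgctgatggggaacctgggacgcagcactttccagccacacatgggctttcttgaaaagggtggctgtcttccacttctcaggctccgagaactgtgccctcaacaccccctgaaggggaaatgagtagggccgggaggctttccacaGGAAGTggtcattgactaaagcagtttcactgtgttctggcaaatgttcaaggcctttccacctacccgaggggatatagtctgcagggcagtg
Gimap7: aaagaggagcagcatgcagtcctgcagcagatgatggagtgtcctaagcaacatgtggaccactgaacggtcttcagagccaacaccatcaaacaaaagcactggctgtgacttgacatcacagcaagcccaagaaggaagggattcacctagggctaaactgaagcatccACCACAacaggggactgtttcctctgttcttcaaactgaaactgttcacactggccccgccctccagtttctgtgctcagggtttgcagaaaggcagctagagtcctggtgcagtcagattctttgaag
Gimap4: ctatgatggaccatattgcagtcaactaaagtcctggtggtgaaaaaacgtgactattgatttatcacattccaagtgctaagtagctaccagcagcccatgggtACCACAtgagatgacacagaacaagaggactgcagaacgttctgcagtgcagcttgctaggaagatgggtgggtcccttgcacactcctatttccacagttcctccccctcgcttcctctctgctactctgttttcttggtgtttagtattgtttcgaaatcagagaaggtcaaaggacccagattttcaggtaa
The letters GGAAGT on either strand occurred in 4 of the 8 members, Gimap1, Gimap5, Gimap6 and Gimap9, against 23.8% of 32851 promoters of that length. These are the 4 most abundant members. TGTGGT on either strand was found in Gimap1, Gimap4 and Gimap7, and in 16.8% of all promoters. AGATAA or TTATCT, as in sites of GATA factors, was in no member and in 11.2% of all promoters. All 3 motifs were chosen after the sequences had been seen, and a match is a description of letters, not evidence that a factor binds.

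In KL cells, the summed level of the 8 genes was 131, 147, 173 and 167 CPM in SPF pools 1, 2, 7 and 8, and 96.2, 81.3, 131 and 122 CPM in CVT pools 3, 4, 5 and 6. CVT pools averaged 108 ± 22.8 CPM and SPF pools 155 ± 19.5 CPM (SD, n = 4), which is 69.5% of the SPF level. The groups did not overlap, though only barely, as the highest CVT pool had 130.6 CPM and the lowest SPF pool 130.9 CPM. Within pools 1 to 4 the CVT level was 63.9% of the SPF level and within pools 5 to 8 it was 74.2%.

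The abundant members made up this difference. For Gimap1, the SPF pools 1, 2, 7 and 8 had 46.8, 53.6, 64.7 and 66.8 CPM and the CVT pools 3, 4, 5 and 6 had 35.8, 27.7, 50.9 and 49.4 CPM. The groups overlapped because CVT pools 5 and 6 lay above SPF pool 1, while within each pool set both CVT pools were below both SPF pools. Gimap6 had 35.4, 44.7, 50.9 and 47.3 CPM in SPF pools and 28.8, 23.5, 35.4 and 31.5 CPM in CVT pools, and its groups met at 35.44 CPM in CVT pool 5 and 35.45 CPM in SPF pool 1. Gimap9 had 31.6, 33.1, 31.3 and 32.2 CPM in SPF pools, a spread of 0.781 CPM (SD), and 22.0, 22.2, 28.3 and 26.3 CPM in CVT pools, so that its SPF values were alike in both pool sets while its CVT values were higher in pools 5 and 6. Gimap5, which protects lymphocytes from early death, had 11.2, 10.8, 16.3 and 14.6 CPM in SPF pools against 6.83, 6.04, 11.002 and 10.1 CPM in CVT pools, with CVT pool 5 just above SPF pool 2.

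The scarce members had lower CVT means as well, with more scatter. Gimap7 had 2.94, 3.33, 4.49 and 3.21 CPM in SPF pools and 1.89, 1.35, 1.79 and 2.35 CPM in CVT pools, without overlap, and its CVT mean was 52.9% of the SPF mean. Gimap8 ranged from 0.857 to 1.603 CPM in SPF and from 0.385 to 1.48 CPM in CVT pools. Gimap4 ranged from 0.440 to 2.57 CPM in SPF and from 0.1003 to 1.10 CPM in CVT pools, and Gimap3 from 0.139 to 1.36 CPM and from 0.0334 to 0.621 CPM. All 3 overlapped between groups. SPF pool 7, which had the largest share of T and NK-like cells (0.969%), was the highest for Gimap3 and Gimap4. CVT pool 4, which had the next largest share (0.575%), was the lowest for both. Cluster 33 made up 75% of T and NK-like cells in SPF pool 7 and 8.33% in CVT pool 4. The part of these cells in the values was not tested. In the sum over KL cells, 3 of the 8 members had CVT pools that all lay below the SPF pools, Gimap6, Gimap7 and Gimap9, as did 5.2% of the 13265 genes tested.

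**Figure D3:**
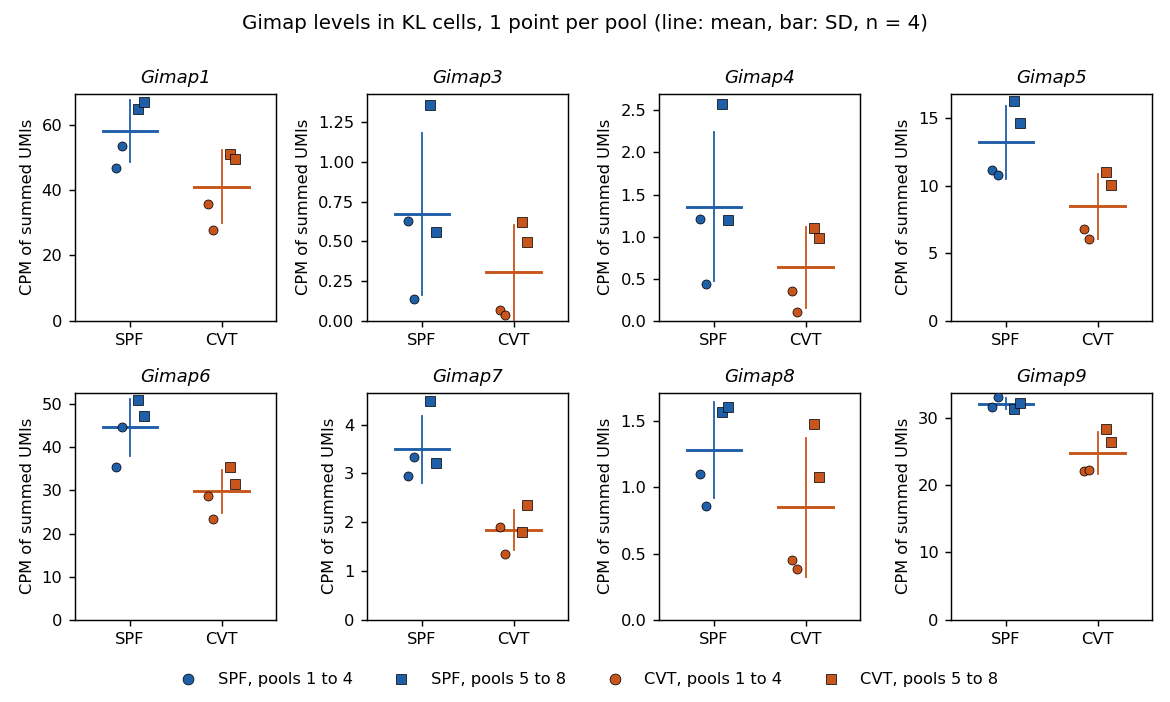
CPM of each Gimap gene in KL cells, with 1 point for each pool, circles for pools 1 to 4, squares for pools 5 to 8, lines for group means and bars for the SD (n = 4). Gimap6, Gimap7 and Gimap9 have no overlap between SPF and CVT pools, and Gimap1 lies between 27.7 CPM in CVT pool 4 and 66.8 CPM in SPF pool 8.

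In edgeR's quasi-likelihood fit of the pools with the pool set as a block, the log2 fold changes of CVT against SPF were -0.48 (SE 0.0821) for Gimap1, -0.54 (SE 0.0884) for Gimap6, -0.33 (SE 0.0673) for Gimap9 and -0.60 (SE 0.0733) for Gimap5. They were -0.86 (SE 0.163) for Gimap7, -0.63 (SE 0.215) for Gimap8, -1.06 (SE 0.405) for Gimap4 and -1.09 (SE 0.514) for Gimap3. Over the alternatives, Gimap4 ran from -1.43 to -0.28, the latter without lymphoid and dendritic clusters. Gimap3 ran from -1.64, without SPF pool 8, to -0.72. The median of the 8 values was -0.62, and that of all 13265 genes was -0.01. At an adjusted p of 0.05, 1 of the 8 members was called, Gimap5, with a lower CVT value, as were 3 of 13265 genes (0.0226%), and 4 genes were called in either direction (0.0302%). The others were Shisa5 (log2 fold change -0.42, adjusted p = 0.0259 in edgeR) and H2-Ob, an MHC class II chaperone subunit (-0.48, adjusted p = 0.0259), lower in CVT pools, and the linker histone gene Hist1h1c (0.45, adjusted p = 0.0259), higher in CVT pools. Next in line among genes with lower CVT values were Il17re (-0.70, adjusted p = 0.0736 in edgeR) and the lymphotoxin gene Ltb (-0.70, adjusted p = 0.0773 in edgeR), and among those with higher values Hist1h1a (0.50, adjusted p = 0.0914 in edgeR). Without the block edgeR called no gene (unadjusted p was under 0.05 for 392 genes with higher and 529 with lower CVT values), while DESeq2 with the block called 143 genes (1.08%), 5 of them members. Leaving out SPF pool 8 gave 173 calls in edgeR (1.29% of genes), also with 5 members, and each of the other 7 pools left out gave 0 or 1 call and no member.

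By the count of genes called, the pool sets differed more than the housing groups. Between pools 5 to 8 and pools 1 to 4, edgeR called 2642 genes (19.9%), of which 1372 were higher in pools 5 to 8 (10.3%), and 6 of the 8 members were among the higher ones, all but Gimap7 and Gimap9. The log2 differences were 0.53 for Gimap1, 0.61 for Gimap5, 0.33 for Gimap6, 1.18 for Gimap8, 1.72 for Gimap4 and 2.25 for Gimap3, with 0.31 for Gimap7 and 0.15 for Gimap9. For Gimap6, Gimap7 and Gimap9 the log2 fold change between housing groups given above was larger in size than these values, and for the other members it was smaller. The summed level averaged 114 CPM in pools 1 to 4 and 148 CPM in pools 5 to 8, over both housing groups. These means were closer than those of CVT and SPF pools (108 and 155 CPM). A term for a housing effect that differs between the pool sets gave an adjusted p under 0.05 for 0 of 13475 genes in edgeR (unadjusted p was under 0.05 for 517 genes in one direction and 691 in the other), and DESeq2 was not run for it. The pool-set count moved by over 1.5 times without any single pool but SPF pool 1, from 79 without CVT pool 3 to 4543 without SPF pool 8. The count of members called was from 2 to 6 without single pools, with 2 without CVT pool 3, 4 or 5 and 3 without CVT pool 6 or SPF pool 7. From 0.588% to 33.9% of all genes were called in these fits, in either direction. With lymphoid and dendritic clusters left out, 7 members were abundant enough to be tested and 4 were called, as were 19.9% of genes in either direction. Within classes, edgeR called all 4 members tested higher in pools 5 to 8 in GMP-like cells (7.19% of genes) and Gimap5 among 6 in LTHSC-like cells (0.309% of genes), a call that DESeq2 did not make and that was lost without any single one of the CVT pools or without SPF pool 7. The LTHSC-like count of genes called higher, 30, became 19 without CVT pool 3 or 4, 48 without SPF pool 2 and 132 without SPF pool 8. In GMP-like cells DESeq2 called 3 of the 4 higher, with 294 genes called higher in place of 778, and edgeR called 3 without any single one of the CVT pools, with 302 to 420 genes called higher. GMP-like makeup differed between the pool sets. Cluster 3, highest in Gimap level, averaged 28.8% of the class in pools 1 to 4 and 47.0% in pools 5 to 8. Cluster 10, low in Gimap level, averaged 26.5% and 15.2%. Within cluster 3 the summed level averaged 166 and 199 CPM, and the part of makeup was not tested. None of those tested was called by edgeR in LMPP-like, CMP-like and MEP-like cells, where 0.942%, 0.259% and 0.478% of genes were called in either direction. Single pools moved these counts: in MEP-like cells 53 genes became 1572 without SPF pool 8 (14% of genes), with 1 member called higher, and 35 without CVT pool 3 or 4. In LMPP-like cells 99 became 26 to 55 without any single one of the CVT pools, 54 without SPF pool 7 and 272 without SPF pool 8. In CMP-like cells 14 became 9 without CVT pool 5, 8 without CVT pool 6, 21 without SPF pool 1 and 24 without SPF pool 8. No member was called in LMPP-like or CMP-like cells in any of these fits.

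Within the classes that had at least 20 cells in each pool, the mean of the summed level was lower in CVT than in SPF pools, to different degrees. In LTHSC-like cells the summed level was 532, 563, 587 and 590 CPM in SPF pools 1, 2, 7 and 8 and 504, 407, 510 and 541 CPM in CVT pools 3, 4, 5 and 6. The means were 568 ± 26.8 CPM and 490 ± 58.1 CPM (SD, n = 4), the CVT level was 86.3% of the SPF level, and CVT pool 6 lay above SPF pool 1. Cluster 9, the higher of the clusters in this class, made up 30.9 ± 5.58% of LTHSC-like cells in CVT and 40.6 ± 2.44% in SPF pools, without overlap, and within it the CVT level was 95.9% of the SPF level (665 ± 85.5 against 693 ± 14.6 CPM, SD, n = 4). Within cluster 2 the CVT level was 86.6% of the SPF level (428 ± 56.2 against 494 ± 39.8 CPM), and the groups overlapped in both clusters. The LMPP-like level was 86.9% of the SPF level (277 ± 34.8 against 319 ± 19.95 CPM, SD, n = 4), also with overlap. Cluster 5, with 399 CPM over all pools together, made up 45.7 ± 5.25% of LMPP-like cells in CVT and 54.0 ± 2.80% in SPF pools, without overlap. Within LMPP-like clusters 5, 15 and 24 the CVT level was 85.0%, 93.4% and 85.2% of the SPF level, with overlap. The part of makeup in the values of LTHSC-like and LMPP-like cells was not tested. In MEP-like cells the CVT level was 75.7% of the SPF level (59.2 ± 6.68 against 78.2 ± 8.64 CPM) and in the unnamed cluster 8 it was 74.2% (263 ± 47.7 against 355 ± 45.1 CPM), and in both the pools of the groups were apart. MEP-like makeup differed as well, with overlap: clusters 0 and 1 (150 and 91.0 CPM as means over pools) made up 30.9 ± 4.81% and 26.4 ± 4.17% of the class in CVT and 35.9 ± 4.39% and 33.0 ± 5.19% in SPF pools. Cluster 14, with a lower level, made up 11.8 ± 2.17% in CVT and 7.60 ± 3.28% in SPF pools. Within clusters 0 and 1 the CVT level was 84.7% and 93.1% of the SPF level, with overlap, and within cluster 17 it was 75.1%, without overlap. The part of makeup in the MEP-like value was not tested. GMP-like cells stood lowest, at 64.7%, with 66.1, 73.0, 92.9 and 95.9 CPM in SPF pools and 35.7, 31.9, 72.5 and 71.9 CPM in CVT pools. CVT levels were 93.3% of SPF levels in MK-like, 91.3% in basophil and mast-like, 95.9% in late granulocyte-like and 97.7% in monocyte-like cells, within the spread of the pools.

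**Figure D4:**
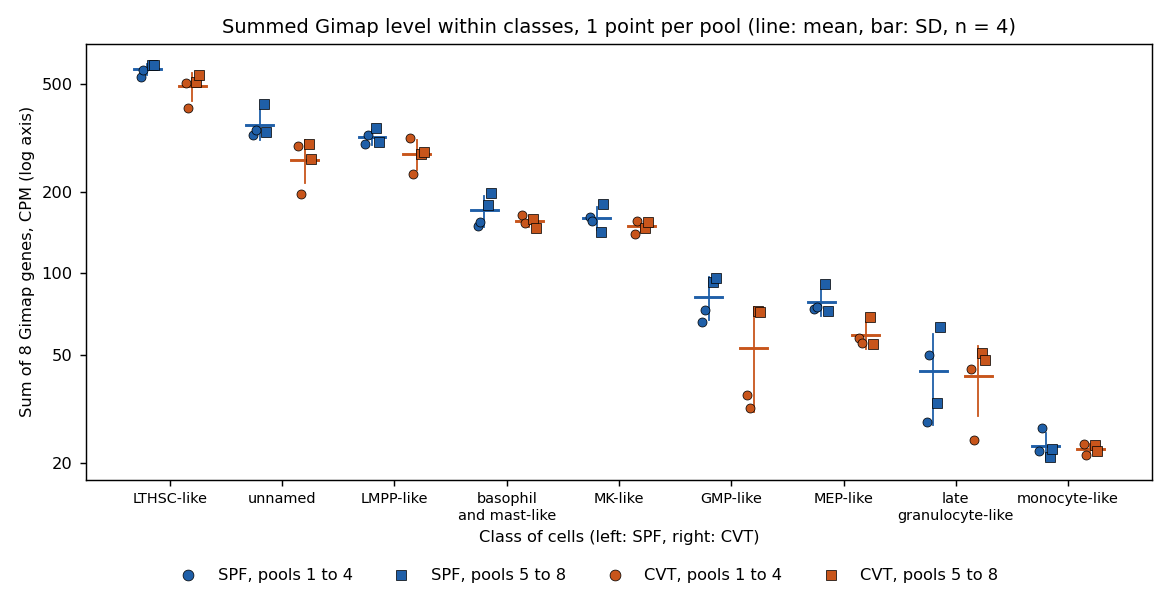
Summed level of the 8 Gimap genes within classes that had at least 20 cells in each pool, as CPM on a log axis, with SPF pools on the left and CVT pools on the right of each class, lines for means and bars for the SD (n = 4). The groups are apart in MEP-like cells and in the unnamed cluster 8, and GMP-like cells of CVT pools 3 and 4 (35.7 and 31.9 CPM) lie far below the others.

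Among the members in LTHSC-like cells, Gimap6 was 183, 191, 187 and 186 CPM in SPF pools and 160, 128, 151 and 156 CPM in CVT pools. Its groups did not overlap, but the share of all genes without overlap was not measured in this class, so this is a description only. The log2 fold change of Gimap6 ran from -0.32 to -0.07 over the alternatives, the latter in the Procr-high cluster alone. The groups were closer for Gimap1, with means of 229 ± 29.2 CPM in CVT and 244 ± 12.8 CPM in SPF pools (SD, n = 4), and Gimap8 was 7.53 CPM in both. Gimap7 had 4.76 ± 1.96 CPM in CVT and 8.76 ± 3.44 CPM in SPF pools, with log2 fold changes from -0.91 to -0.43 over the alternatives. Gimap5 had 49.3 ± 11.9 and 61.9 ± 9.11 CPM, and Gimap9 49.2 ± 1.99 and 57.6 ± 7.02 CPM. Gimap5, Gimap7 and Gimap9 all overlapped between groups. In edgeR, 0 of 9706 genes were called in LTHSC-like cells (unadjusted p was under 0.05 for 398 with higher and 305 with lower CVT values, and DESeq2 called 0), 6 of the 8 members being abundant enough to be tested. Without SPF pool 8 that count was 38, with no member. In CMP-like cells 0 of 5410 genes were called (156 with higher and 120 with lower values had an unadjusted p under 0.05, and DESeq2 called 0, while 7 were called without SPF pool 8). Of the 3 members tested there, Gimap6 had a higher CVT value (log2 fold change 0.32, SE 0.264, from 0.23 to 0.52 over the alternatives) and Gimap1 (-0.29, SE 0.204) and Gimap9 (-0.31, SE 0.294, from -0.52 to -0.16) lower ones. In MEP-like cells 0 of 11097 genes were called (389 with higher and 574 with lower values had an unadjusted p under 0.05, and DESeq2 called 3), with 4 members tested. Without SPF pool 8 edgeR called 217 genes there (1.93%), 2 of them members. In LMPP-like cells edgeR called 4 of 10504 genes (0.0381%), none of them among the 6 members tested, and DESeq2 called 2, while leaving out single pools gave from 0 to 7.

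GMP-like cells had 72 of 10826 genes called in edgeR (0.665%), 48 of them higher and 24 lower in CVT pools. Of the 4 members abundant enough to be tested, Gimap1 (log2 fold change -0.71, SE 0.1197) and Gimap6 (-0.79, SE 0.123) were among the lower genes (0.222% of genes), and Gimap5 (-0.38, SE 0.226) and Gimap9 (-0.38, SE 0.114) were not. Without the pool-set block edgeR called no gene (unadjusted p was under 0.05 for 503 with higher and 349 with lower CVT values), and DESeq2 with the block called 99 genes but gave no adjusted p for these 4 members. The count ran from 27 without SPF pool 1 or 2 to 192 without SPF pool 8, and Gimap1 was not called without SPF pool 2. Also lower in CVT pools were the stem cell factors Hlf (-0.70, adjusted p = 0.0298 in edgeR) and Meis1 (-0.42, adjusted p = 0.0232 in edgeR). The makeup of GMP-like cells differed in the same direction: cluster 3, with the highest Gimap level of the class, made up 16.98%, 17.2%, 45.8% and 40.0% of GMP-like cells in CVT pools 3, 4, 5 and 6 and 41.5%, 39.7%, 54.5% and 47.9% in SPF pools 1, 2, 7 and 8. Within cluster 3 alone, the summed level was 166 ± 21.7 CPM in CVT and 199 ± 25.0 CPM in SPF pools (SD, n = 4), or 83.2%, and the groups overlapped. The part of this makeup in the lower values of GMP-like cells was not tested.

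Since classes differ so much in Gimap level, the makeup of a pool enters its level in KL cells. LTHSC-like cells made up 9.53%, 10.5%, 10.7% and 15.7% of cells in SPF pools 1, 2, 7 and 8 and 6.11%, 6.44%, 10.4% and 9.62% in CVT pools 3, 4, 5 and 6, and GMP-like cells 13.3 ± 1.24% in SPF and 17.4 ± 1.73% in CVT pools (SD, n = 4). When each class was given its mean share of UMIs over the 8 pools, the summed level was 117 ± 12.2 CPM in CVT and 143 ± 8.59 CPM in SPF pools, so that the CVT level was 81.7% of the SPF level in place of 69.5%. When the same was done for the 34 clusters, an alternative chosen with the data in view, it was 87.3% (120 ± 9.32 against 138 ± 4.81 CPM). The pools of the groups remained apart in both, with 126 CPM in the highest CVT pool and 133 CPM in the lowest SPF pool in the cluster-weighted values. Of 23 clusters with at least 20 cells in each pool, the CVT mean was below the SPF mean in 20, and below it within both pool sets in 15. The weights were chosen with the values known, and the part of makeup in the lower sum was not tested.

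**Figure D5:**
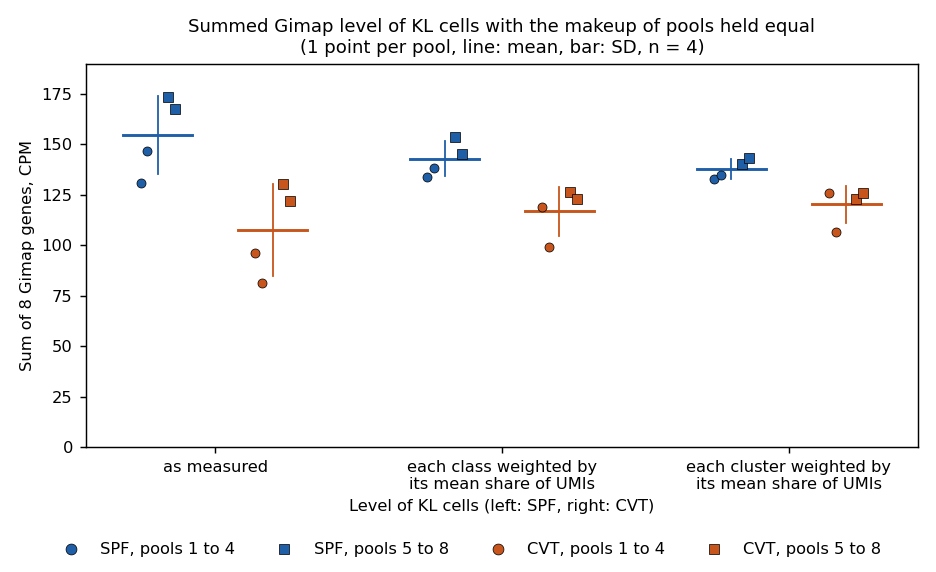
Summed level of the 8 Gimap genes in KL cells as measured, with each class weighted by its mean share of UMIs over the 8 pools, and with each cluster weighted likewise, in CPM, with 1 point per pool, lines for means and bars for the SD (n = 4). CVT means are 108, 117 and 120 CPM and SPF means 155, 143 and 138 CPM, from left to right.

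Because Gimap genes are known from lymphocytes, lymphocyte markers were followed in the same pools. The T cell list had 13 of 16 genes in the table, none of them at 0, and added up to 31.3, 35.3, 44.6 and 36.5 CPM in SPF pools 1, 2, 7 and 8 and 24.8, 21.9, 34.7 and 33.5 CPM in CVT pools 3, 4, 5 and 6, a difference that missed the threshold (exact permutation test, two-sided, p = 0.143, adjusted p = 0.214 over 3 lists). Within each pool set both CVT pools lay below both SPF pools, and the regroupings of this test did not keep the pool sets apart. Most of that sum was Lat, an adaptor of the T cell receptor, with 7042 UMIs. A UMI of any gene of the list was held by 24.3% of all cells, from 6.84% of monocyte-like to 91.4% of T and NK-like cells. How much of this came from free RNA was not measured. The defining genes were scarce, with 32 UMIs of Cd3e, 391 of Cd3d and 156 of Cd3g in all pools. The NK and innate lymphoid list, 10 of 10 genes and most abundant in Zbtb16, added up to 22.9, 20.8, 23.1 and 21.4 CPM in SPF pools and 13.4, 18.1, 16.8 and 15.9 CPM in CVT pools. The groups were apart, with p = 0.0286 in the exact permutation test, the smallest that 70 regroupings allow, and an adjusted p of 0.0857 over the 3 lymphocyte lists. This list was chosen with earlier results known, and the regroupings mixed the pool sets. The p therefore only restates that the pools did not overlap. The same test was run on the sums of the other 6 lists, without adjustment. The groups did not overlap (exact permutation p = 0.0286) for the stem cell list, interferon-inducible GTPases and reported partners. CVT sums were 81.8%, 87.4% and 95.6% of SPF sums in these lists, against 72.8% in the NK list. For the remaining 3 lists the exact permutation p was from 0.0857 to 0.229. All lists were chosen with earlier results known, so these p values only describe how the pools separate. Without single pools the exact permutation p of the 3 lists that were apart was 0.0286 or 0.0571, the latter for stem cell genes without any SPF pool, for interferon-inducible GTPases without SPF pool 2 or any CVT pool, and for partners without SPF pool 1 or any CVT pool. Stem cell genes added up to 324 to 340 CPM in SPF and 227 to 314 CPM in CVT pools, interferon-inducible GTPases to 159 to 192 CPM and 137 to 158 CPM, and partners to 897 to 944 CPM and 861 to 893 CPM. The B cell list, 12 of 12 genes and most abundant in Cd79b, was 61.3, 57.8, 128 and 105 CPM in SPF and 41.3, 48.4, 91.3 and 110 CPM in CVT pools (exact permutation p = 0.514).

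Lymphocytes carried little of the abundant members. T and NK-like cells held 2.64% and B-like cells 1.13% of all Gimap UMIs. With the T and NK-like, B-like and dendritic-like clusters left out, which was chosen with the data in view, the summed level was 105 ± 22.4 CPM in CVT and 148 ± 18.1 CPM in SPF pools (SD, n = 4), or 70.5%, and edgeR again called 4 genes. The groups then overlapped, with 127 CPM in the highest CVT pool and 125 CPM in the lowest SPF pool, and so did those of Gimap6 (34.8 and 33.6 CPM). The means of Gimap3 without these clusters were 0.145 and 0.167 CPM, and CVT values of Gimap3 and Gimap4 were then 87.0% and 89.4% of SPF values, where they had been 45.2% and 46.7% with all cells. The pool sets differed in this, with 43.4% and 39.8% in pools 1 to 4 and 106% and 143% in pools 5 to 8. Leaving out each of the 7263 cells with any UMI of the T cell list gave 68.8% for the sum, also with overlap (109 CPM in the highest CVT and 108 CPM in the lowest SPF pool), 68.5% for Gimap3 and 45.1% for Gimap4, and edgeR then called 0 of 12894 genes (unadjusted p was under 0.05 for 532 with higher and 892 with lower CVT values, and DESeq2 was not run for it). The part of lymphocytes in the lower Gimap3 and Gimap4 values was not tested beyond these values.

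None of the listed genes passed the threshold between housing groups in KL cells. The T cell list had 10 genes tested with a median log2 fold change of -0.32, the NK and innate lymphoid list 9 with -0.55, the B cell list 11 with -0.49 and the stem cell list 15 with -0.35, against -0.01 for all genes. The median was -0.14 over 16 lymphoid priming genes and -0.06 over 8 endothelial genes. Between the pool sets, where 10.3% of all genes were called higher in pools 5 to 8 and 19.9% in either direction, all 11 B cell genes tested were called higher in pools 5 to 8, led by Pax5 (log2 difference 2.54), as were 6 of 15 stem cell genes, among them Procr (0.68), Hlf (0.72), Mecom (0.50), Ly6a (0.87) and Tcf15 (0.60), while 3 of the 15 had values below 0. Lat was also higher there (0.31), as were Klrb1c (1.15) and Klre1 (2.01) of the NK list, while Zbtb16 was lower (-0.37). Of 16 lymphoid priming genes, 4 were higher, among them Satb1, Notch1 and Cd52, and Tcf3 was lower, and of endothelial genes Tie1 and Emcn were higher and Plvap was lower. The part of these genes' cells in the members' pool-set differences was not tested.

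Genes next to the family were followed as well. Tmem176b and Tmem176a, membrane proteins of myeloid and dendritic cells encoded next to Gimap3, had log2 fold changes of -0.21 (adjusted p = 0.276) and -0.17 (adjusted p = 0.399) in KL cells in edgeR, with pools that overlapped. Over the sums of a pool and a class their log2 CPM correlated with the summed Gimap level at r of 0.422 and 0.480, and at r of 0.438 and 0.433 with the mean of each class taken off, where the median gene had 0.0346 and the 99th percentile was 0.472. Of the 6 neighbours tested, all had log2 fold changes below 0 in KL cells (median -0.13), none was called between housing groups or pool sets in KL cells, and 1, Tmem176b, was lower in CVT pools in GMP-like cells (-0.23, adjusted p = 0.0203 in edgeR). The long noncoding RNA 4833403J16Rik, counted from the same locus, had 1.76 ± 0.335 CPM in SPF and 1.15 ± 0.344 CPM in CVT pools, and its log2 fold change of -0.57 missed the threshold (adjusted p = 0.308 in edgeR).

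Interferon-inducible GTPases form other families of immune GTPases, which act on the membranes around intracellular pathogens. Of 18 listed genes of the Irg, Gbp and Mx families, 17 were in the table, 15 were tested, and Gbp2b and Gbp6 had no UMI. Their median log2 fold change was -0.25, with 13 below 0 and none called, and between the pool sets Irgm2 was higher in pools 5 to 8 (0.66). The most abundant were Ifi47 (51.3 ± 2.91 CPM in CVT and 61.1 ± 6.36 CPM in SPF pools, SD, n = 4, adjusted p = 0.327 in edgeR), Gbp7 (24.6 and 27.0 CPM) and Gbp3 (21.6 and 19.5 CPM). Genes of proteins reported to work with members of the family, which are Atg8-family genes of autophagy and Bcl2-family genes, had a median of 0.00 over 10 genes tested. Gabarapl2, the reported partner of Gimap6, was at 103 ± 10.7 CPM in CVT and 114 ± 4.21 CPM in SPF pools (log2 fold change -0.11, adjusted p = 0.368 in edgeR), and was higher in pools 5 to 8 (0.16). Gabarap, Map1lc3b and Bax had log2 fold changes of -0.01, 0.01 and 0.07.

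Among 7053 genes with at least 10 CPM, those whose log2 CPM followed the summed Gimap level most closely over the 78 sums were H2-Q4, an MHC class I gene (r = 0.902), Ptprcap, which encodes a protein associated with CD45 (r = 0.885), Gtpbp2 (r = 0.884), Rsbn1l, Avl9, Rhoh, Wnk1, Utrn, Malat1 and Ctso (r from 0.843 to 0.868). The median gene had an r of 0.172 and the 99th percentile was 0.749. With the mean of each class taken off, the first 10 were Ctla2a (r = 0.666), AW112010 (r = 0.651), Lat (r = 0.644), Ptprcap (r = 0.602), the kinase gene Fyn, Sepw1, the interferon-inducible Ifi203, Crlf3, Cnbp and Nedd4 (r from 0.585 to 0.602), against a median of 0.0346 and a 99th percentile of 0.472. Only Ptprcap was in both. In KL cells Ptprcap had 262 ± 32.1 CPM in CVT and 316 ± 21.0 CPM in SPF pools (log2 fold change -0.23, adjusted p = 0.210 in edgeR), Ctla2a -0.38 (adjusted p = 0.185) and H2-Q4 -0.25 (adjusted p = 0.223), and none of the 19 genes was called there. In GMP-like cells Ctla2a was lower in CVT pools (-0.65, adjusted p = 0.000218 in edgeR). The sums share pools and depth, so these values rank genes and give no test.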

How the data were processed

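According to the submitters' processing notes, the deposited UMI count table was made by the authors with Cell Ranger (version not given) on mouse build mm9, while the gene order and promoters used here come from GRCm38.p6. The members and the gene lists were chosen with earlier results of these data known. All 29891 deposited cells were kept. Cells were clustered with scanpy 1.11.5 and leidenalg 0.10.2 (1000 variable genes, 30 components, 30 neighbours, resolution 2, Gimap genes left out), and clusters were named by their overlap with marker lists. Scrublet marked 25 cells (0.0836%) as doublets, so doublet calling has not worked here. Counts were added up by pool, or by pool and class with at least 20 cells, and fitted in edgeR 4.0.16 (TMM, filterByExpr, quasi-likelihood tests, pool set as a block, Benjamini-Hochberg over all genes tested), which was tested on simulated data. DESeq2 1.42.0, RLE size factors, no filter, no block, stricter cell filters and leaving out each pool were the alternatives. Python 3.11.15 and R 4.3.3 were used. Genes named are the members, the 3 most abundant and the called genes of each list (neighbours, interferon-inducible GTPases, partners, T, NK and B cell, lymphoid priming, stem cell, endothelial), the 5 smallest adjusted p in each direction, and the 10 genes most like the family by each measure. Others were named after their values were seen. Some genes that the rule would name are not reported here.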

Additional observations from a re-analysis of the deposited data

Results flagged for a closer look

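In 3 of 48 groups of 4 pools checked, 1 pool stood far from the other 3, and chance gives about 1 in 20. The long noncoding RNA 4833403J16Rik was at 2.26 CPM in KL cells of SPF pool 1, with 1.54 to 1.62 CPM in the other SPF pools. In SPF pool 7 the summed Gimap level was 91.0 CPM in MEP-like cells, with 72.6 to 74.9 CPM in the other SPF pools, and 422 CPM in the unnamed cluster 8, with 325 to 339 CPM in the other SPF pools. The cause was not tested for any of them.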

How the results depend on the processing

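Of 363 alternative log2 fold changes of members, 342 kept their sign and stayed within 1 SE of the reported value, 16 kept their sign but moved further and 5 turned sign, none of the latter in KL cells. Among those that moved, Gimap4 in KL cells was -0.28 without lymphoid and dendritic clusters, Gimap3 in KL cells -1.64 without SPF pool 8, Gimap7 in KL cells -1.14 without cells holding a T cell marker, Gimap6 in LTHSC-like cells -0.07 in the Procr-high cluster, Gimap1 in LMPP-like cells -0.06 without CVT pool 4, and Gimap5 in GMP-like cells -0.65 without SPF pool 8. The 5 that turned sign were near 0: Gimap1 in LTHSC-like cells was 0.0860 in the Procr-high cluster alone and -0.10 to 0.0124 without single pools (0.0124 without CVT pool 4), Gimap8 in LTHSC-like cells -0.12 to 0.17 (-0.12 without CVT pool 6 and -0.04 without SPF pool 7), and Gimap9 in LMPP-like cells -0.11 to 0.0720 (0.0720 without SPF pool 2). Counts of genes called in KL cells between housing groups were 0 without the block, 115 without a filter, 143 in DESeq2, 0 without cells holding a T cell marker and 0 to 173 without single pools. The pool-set count was 79 to 4543 without single pools. In LTHSC-like cells the count was 2 in the Procr-high cluster, chosen after seeing the data, and 0 to 38 without single pools. It was 0 without the block, 2 in DESeq2 and 0 to 7 without single pools in LMPP-like, 0 to 7 in CMP-like, 3 in DESeq2 and 0 to 217 in MEP-like, and 0 without the block and 27 to 192 in GMP-like cells. The log2 difference of the summed level was -0.52 and became -0.20 with clusters weighted by their mean share, also chosen after seeing the data, and -0.63 to -0.41 without single pools. With clustering at resolution 1, the summed level was 52.5 CPM in MEP-like, 19.99 CPM in monocyte-like and 149 CPM in unnamed cells, and with Gimap genes allowed in the clustering 19.7 CPM in monocyte-like and 119 CPM in unnamed cells. The unnamed cells differed between clusterings: in both alternatives they included a cluster led by Apoe, an MPP-like cluster appeared (305 and 392 CPM), and no cluster was named CMP-like. The causes were not tested. The exact p was 0.0286 for the NK list without any single pool, which is the smallest that 7 pools allow and so says nothing of stability, 0.0857 to 0.286 for the T cell list and 0.314 to 0.971 for the B cell list. In the reported clustering no cluster was named MPP-like, so that class was not fitted, and CMP-like cells of SPF pool 7 were too few to enter.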
